A study of Mus musculus with 4 samples.

Results

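The genes described here are 9 regulators and markers of the formative and primed states of pluripotency: Sox4, Pim2, Tcf15, Otx2, Pou3f1, Sox3, Foxd3, Ncam1 and Fgf5. They were taken by gene symbol from a ribosome profiling table, in which they are 9 of 25170 genes, and all 9 were present once. The table holds 4 libraries from E14, a wild-type mouse embryonic stem cell line that goes back to the inner cell mass of the blastocyst. In both groups the cells grew in serum with leukemia inhibitory factor on gelatin for 3 passages, with DMSO, the solvent, in 2 libraries and with 1 µM PD in 2 libraries. The labels name the compound only as PD, and the series describes its use to address what the kinase Mek does to gene expression after transcription. All libraries come from this single line, and the labels do not state whether replicates were separate cultures, which means that the p-values reflect the spread of these libraries only, part of which may be technical.

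Embryonic stem cells in the naive state resemble the early epiblast. Before they can form the germ layers they pass through a formative state and then a primed one, a step that in mouse cells depends on Fgf signalling through Mek and its target kinase ERK. Otx2 and Pou3f1 are transcription factors that open enhancers of the later states, Foxd3 and Sox3 act with them, Tcf15 marks cells preparing to leave the naive state, and Fgf5 is a growth factor that serves as a classical marker of the post-implantation epiblast. Sox4 is a transcription factor of many progenitor cells, Pim2 is a serine/threonine kinase that promotes survival, and Ncam1 is a cell adhesion molecule of the immunoglobulin superfamily.

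In short, Sox4, Pim2, Tcf15 and Otx2 had lower footprint levels in both PD libraries than in either DMSO library, Ncam1 was 2.81 times as high in PD, Foxd3 and Sox3 overlapped between the groups, Pou3f1 was near 1 FPKM and Fgf5 was all but absent. None of the 7 genes that could be tested passed the test between groups. For Sox4 and Foxd3 the DMSO libraries were at least as far apart as the groups, and for Pim2, Tcf15 and Otx2 the lowest value came from 2 to 5 reads in PD replicate 2.

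The values are FPKM, a fragment count scaled for the length of the gene model and for library depth, and in ribosome profiling they follow both the amount of an mRNA and how densely ribosomes occupy it. In bulk samples such as these, fewer cells with a transcript and less of it per cell cannot be told apart. Depth is not stated in the table, but FPKM of genes counted in whole reads move in steps of 1 read. These steps put the depth of DMSO replicate 2 at 1.42 times that of DMSO replicate 1, of PD replicate 1 at 0.464 times and of PD replicate 2 at 0.201 times. Depth therefore went with treatment, and its part in the differences between groups was not tested. Small RNA genes held 99.5% to 99.7% of the summed FPKM of each library. Over 6362 protein-coding genes above 0 in every library and with recovered reads, the median of these reads was 53 and 76 with DMSO, and 25 and 11 with PD. Recovered reads are the smallest whole reads that fit, so the full counts can be multiples of them. The lower and upper bounds deposited with each FPKM do not carry this difference in depth: the reads per FPKM that their width implies were, relative to DMSO replicate 1, 1.00 for the second DMSO library and 1.00 and 0.997 for the PD libraries (medians over 8721 genes). The intervals given below were therefore computed from the recovered reads. They are exact 95% Poisson or binomial intervals and cover the error of counting alone, as the labels mention no molecular identifiers.

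The recovered reads also show the gene models behind the values. For Sox4, Pou3f1, Sox3 and Foxd3, the FPKM of 1 read in DMSO replicate 1 equalled 216 divided by the length of the locus minus 201 bases, with fitted lengths off by at most 0.000277%. Both constants were fitted to these 4 genes, with each model taken as its whole locus. The lengths were 4780 bases for Sox4, 3010 for Pou3f1, 2065 for Sox3 and 2373 for Foxd3. Among 701 other protein-coding genes with recovered reads and a locus under 5000 bases, 113 had a fitted length within 0.2% of the locus. The same relation gave model lengths of 2041 bases for Pim2 and 2093 for Otx2, both far shorter than their loci of 5127 and 9968 bases. For Tcf15 the smallest whole reads, with 16 in DMSO replicate 1, gave no whole number of bases, and reads 2 times as high gave 931 bases. The latter are used below, apart from the voom fit, a fit on counts that took the smallest whole reads. With 201 bases taken off, Tcf15 was divided by 730 bases, so short models are raised more by this step than long ones. Levels of different genes are compared below only on this scale per length. Reads of Ncam1 could not be recovered, because its values in the 4 libraries shared no common step.

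RefSeq promoter sequences of GRCm38.p6 were found for 5 of the 9 genes (Sox4, Pim2, Otx2, Foxd3 and Fgf5). The 250 bases upstream of the start are shown for 3 genes with lower values in PD and for Foxd3, which overlapped. Otx2 has several starts, and the one at the outer edge of its deposited locus is shown. Whether these sequences bear on the footprint values was not tested. Capitals mark matches, on either strand, to motifs that were searched. The octamer bound by POU factors was searched as ATGCAAAT and the cAMP response element as TGACGTCA. The site of the factor NF-Y was searched as CCAAT, on its own and without flanking letters. An E-box, a site of helix-loop-helix proteins, was searched in the form CACGTG. The TATA box near transcription starts was searched in the form TATAAA. The core of sites for ETS factors, which are often targets of ERK, was searched in the form CCGGAAG. These motifs were chosen after the sequences had been seen. No matches overlap each other in the sequences shown. The windows are chr13:28953700-28953949 on the minus strand for Sox4, chrX:7878056-7878305 on the plus strand for Pim2, chr14:48667645-48667894 on the minus strand for Otx2 and chr4:99656049-99656298 on the plus strand for Foxd3.
Sox4: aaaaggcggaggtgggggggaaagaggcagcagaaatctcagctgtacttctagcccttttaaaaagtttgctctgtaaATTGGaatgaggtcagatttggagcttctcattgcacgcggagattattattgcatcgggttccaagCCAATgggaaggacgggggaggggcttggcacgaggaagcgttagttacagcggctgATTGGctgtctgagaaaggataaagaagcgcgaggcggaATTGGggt
Pim2: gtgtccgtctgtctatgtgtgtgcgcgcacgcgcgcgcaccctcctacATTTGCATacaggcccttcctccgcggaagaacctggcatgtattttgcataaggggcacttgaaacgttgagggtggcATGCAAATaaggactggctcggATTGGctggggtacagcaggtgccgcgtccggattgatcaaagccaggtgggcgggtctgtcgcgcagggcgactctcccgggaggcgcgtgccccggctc
Otx2: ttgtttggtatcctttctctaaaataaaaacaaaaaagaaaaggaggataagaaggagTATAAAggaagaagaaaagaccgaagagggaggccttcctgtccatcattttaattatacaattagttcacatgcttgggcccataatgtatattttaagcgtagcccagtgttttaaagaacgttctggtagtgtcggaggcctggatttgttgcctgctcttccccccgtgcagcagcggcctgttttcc
Foxd3: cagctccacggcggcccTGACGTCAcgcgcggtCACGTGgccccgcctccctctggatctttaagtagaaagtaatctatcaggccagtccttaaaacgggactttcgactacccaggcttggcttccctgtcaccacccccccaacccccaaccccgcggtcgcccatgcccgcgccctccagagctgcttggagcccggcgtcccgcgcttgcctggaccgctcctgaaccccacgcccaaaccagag
The Pim2 window holds the octamer 2 times, in opposite orientations, and 1 CCAAT match. The octamer is rare, since 1.6% of 32851 promoter windows of this length hold it at all and 0.0974% hold it 2 times or more. Sox4 has 4 CCAAT matches, a motif found in 33.8% of windows, with 10.1% holding at least 2. Foxd3 has 1 cAMP response element and 1 E-box, present in 1.55% and 6.02% of windows. The Otx2 window has 1 TATAAA, found in 12.4% of windows, and it lies toward the end of the window away from the start. The windows at the other Otx2 starts hold no TATAAA. None of the 4 windows shown holds the ETS core, found in 6.91%. A match describes these letters only and says nothing on binding.

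Otx2 (mm10, chromosome 14, 48657677 to 48667644), a homeodomain factor that drives the exit from the naive state, was at 8.34 and 6.53 FPKM in DMSO and at 5.66 and 2.84 in PD. The PD libraries lay below both DMSO libraries, but PD replicate 1 was nearer to DMSO replicate 2 than to PD replicate 2. The values rest on 73 and 81 reads in DMSO and on 23 and 5 in PD, and the interval of PD replicate 2 ran from 0.921 to 6.62 FPKM, which takes in DMSO replicate 2. The group means were 7.43 ± 1.28 and 4.25 ± 2 FPKM (SD, n = 2). The log2 difference, on the log2(FPKM + 1) scale here and below, was -0.73 (SE 0.39, limma adjusted p = 0.837). With reads pooled by group, PD stood at 0.661 times DMSO (interval 0.425 to 0.993), and DMSO replicate 2 stood at 0.783 times DMSO replicate 1 (0.564 to 1.09). Such pooled ratios compare these libraries, not the conditions. Without PD replicate 2 the log2 difference of Otx2 was -0.33.

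Pou3f1 (chromosome 4, 124657646 to 124660655), a POU factor also called Oct6 that binds beside Otx2 in primed cells, was at 1.15 and 1.09 FPKM in DMSO and at 1.49 and 0 in PD. PD replicate 1 was thus the highest library and PD replicate 2 the lowest. The reads were 15 and 20 in DMSO, 9 in PD replicate 1 and 0 in PD replicate 2, where a count of 0 allows a level of up to 1.15 FPKM (3 reads). That limit lies above DMSO replicate 2, so a loss in PD replicate 2 was not detectable at this depth. The mean over the libraries was 0.933 FPKM, under the minimum of 1 FPKM for testing. The pooled ratio of PD to DMSO was 0.934 with an interval of 0.395 to 1.98.

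Foxd3 (chromosome 4, 99656299 to 99658671), a forkhead factor that primes enhancers during this transition, was at 13.5 and 4.71 FPKM in DMSO and at 7.94 and 3.46 in PD. The groups overlapped, with PD replicate 1 between the DMSO libraries. The DMSO libraries differed from each other by more than counting error: replicate 2 stood at 0.348 times replicate 1, with an interval of 0.256 to 0.469 from 67 and 136 reads. A gap this large on the log2 scale occurred in 2.7% of the 8863 tested protein-coding genes. The PD libraries had 37 and 7 reads. The log2 difference was -0.53 (SE 0.62, limma adjusted p = 0.893), and it turned to 0.15 without DMSO replicate 1.

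Sox3 (chromosome X, 60891366 to 60893430), a close relative of Sox2 that is also an early neural factor, was at 1.97 and 1.15 FPKM in DMSO and at 1.75 and 0.576 in PD. PD replicate 1 again lay between the DMSO libraries and PD replicate 2 was lowest, on 1 read against 17, 14 and 7 in the others. The log2 difference was -0.28 (SE 0.47, limma adjusted p = 0.931), and its 95% interval ran from -1.53 to 0.97. The pooled ratio of PD to DMSO was 0.938 (0.372 to 2.09).

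Sox4 (chromosome 13, 28948920 to 28953699) was at 14.5 and 3.5 FPKM in DMSO and at 1.73 and 2.58 in PD. Both PD libraries lay below both DMSO libraries, yet DMSO replicate 2 was closer to the PD libraries than to DMSO replicate 1. The values rest on 307 and 105 reads in DMSO and on 17 and 11 in PD. DMSO replicate 2 stood at 0.241 times DMSO replicate 1 (interval 0.192 to 0.302), and the groups, with reads pooled, stood at 0.247 (0.162 to 0.362). The gap between replicates of the control was as wide as the gap between groups, and a gap between DMSO libraries of this size was seen in 0.846% of tested protein-coding genes. The interval of DMSO replicate 2, 2.86 to 4.23 FPKM, overlapped that of PD replicate 2, 1.29 to 4.61, but not that of PD replicate 1, 1.01 to 2.77. The log2 difference was -1.42 (SE 0.67, limma adjusted p = 0.837), and it was -0.53 without DMSO replicate 1.

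**Figure D1:**
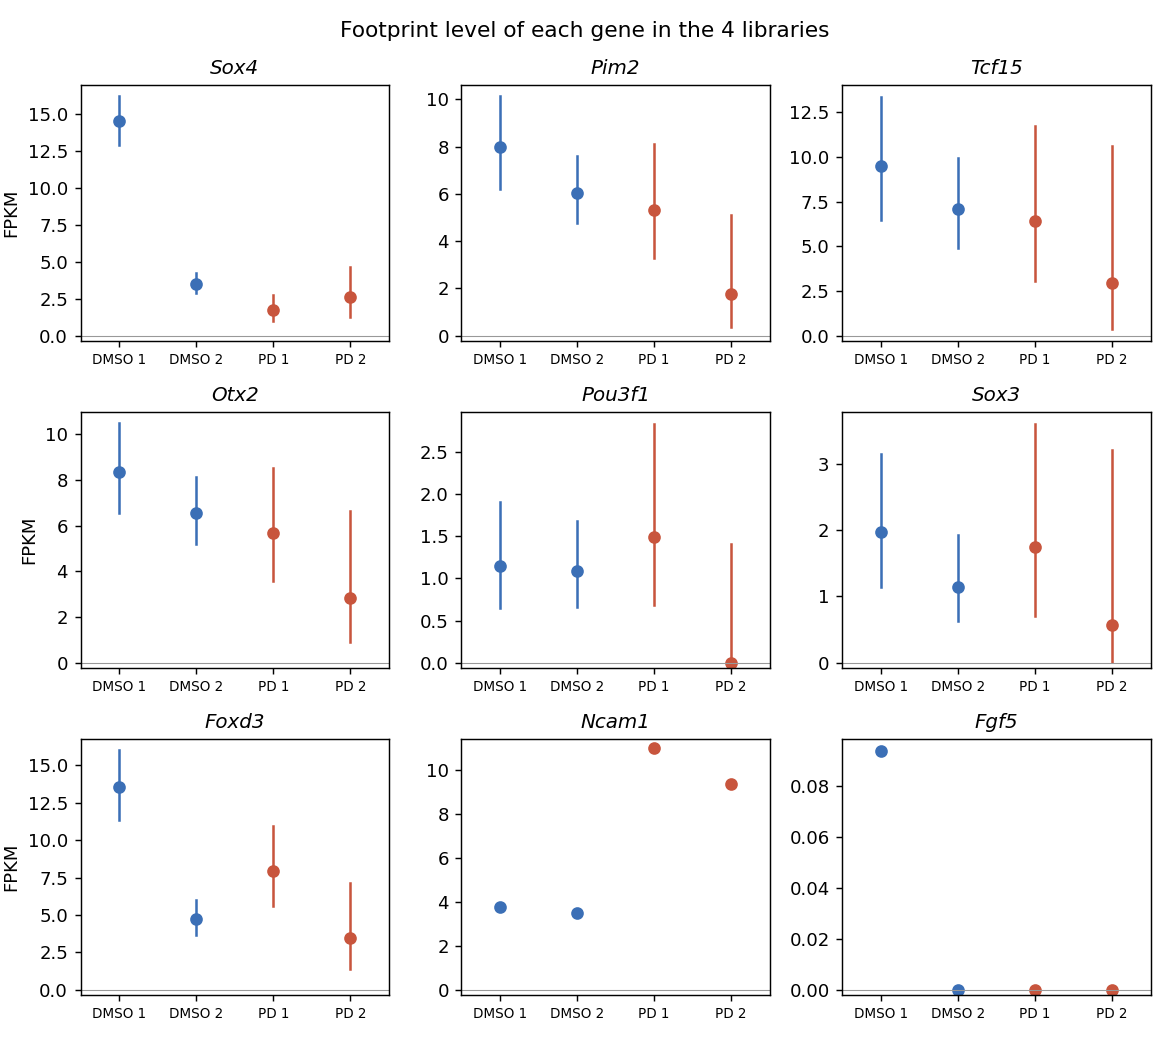
FPKM of each of the 9 genes in the 4 libraries (blue, DMSO; red, PD; 1 point per library), each panel with its own axis from 0. Vertical lines are 95% counting intervals from recovered reads, which Ncam1 and Fgf5 lack. Sox4 stands high in DMSO replicate 1 alone at 14.5 FPKM, and Ncam1 is higher in both PD libraries, at 11 and 9.39 FPKM.

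Tcf15 (chromosome 2, 152143609 to 152149096), a basic helix-loop-helix factor, was at 9.47 and 7.11 FPKM in DMSO and at 6.38 and 2.94 in PD. The order of the libraries was that of Otx2 and Pim2, with both PD libraries lowest and PD replicate 2 under PD replicate 1. Reads were 32 and 34 in DMSO and 10 and 2 in PD, and the interval of PD replicate 2, from 0.356 to 10.6 FPKM, took in every other library. The log2 difference was -0.77 (SE 0.42, limma adjusted p = 0.837), against -0.32 without PD replicate 2. The pooled ratio of PD to DMSO was 0.661 with an interval of 0.325 to 1.23.

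Pim2 (chromosome X, 7878306 to 7883432), the kinase, was at 7.99 and 6.05 FPKM in DMSO and at 5.32 and 1.75 in PD. PD replicate 1 lay close under DMSO replicate 2, and PD replicate 2 was far below on 3 reads, against 68, 73 and 21 reads in the other libraries. The group means were 7.02 ± 1.37 and 3.53 ± 2.52 FPKM (SD, n = 2), and the log2 difference was -0.93 (SE 0.50, limma adjusted p = 0.837). Without PD replicate 2 it was -0.33. The pooled ratio of PD to DMSO was 0.618 (0.383 to 0.958), and the DMSO libraries stood at 0.758 to each other, replicate 2 over replicate 1 (0.537 to 1.07).

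Fgf5 (chromosome 5, 98254184 to 98277033), the secreted ligand, was at 0.0938 FPKM in DMSO replicate 1 and was listed at 0 in the other 3 libraries. That value equals 1 read on a model of 2504 bases. If it was 1 read, 3 reads would be 0.199 FPKM in the other DMSO library and 0.607 and 1.4 FPKM in the PD libraries. Any change of Fgf5 below these levels was not detectable, and the gene was not tested.

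Ncam1 (chromosome 9, 49502129 to 49799393), the adhesion molecule, had 3.79 and 3.48 FPKM in DMSO and 11 and 9.39 in PD, the opposite order of groups. The groups were well apart and each was tight, at 3.64 ± 0.218 and 10.2 ± 1.17 FPKM (SD, n = 2). The log2 difference was 1.27 (SE 0.26), with a 95% interval of 0.57 to 1.98. Its unadjusted p of 0.00672 became 0.687 after Benjamini-Hochberg adjustment over all tested genes (limma). Leaving out any 1 library gave 1.16 to 1.38. Differences at least this large in either direction occurred in 3.35% of tested protein-coding genes. If the same model length held in every library, its reads relative to DMSO replicate 1 would be 1.3 in the other DMSO library. They would be 1.35 and 0.499 in the PD libraries. Since its reads could not be recovered, neither that length nor the number of reads behind the PD level is known. Whether the model length behind the values differed between libraries was not tested.

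**Figure D2:**
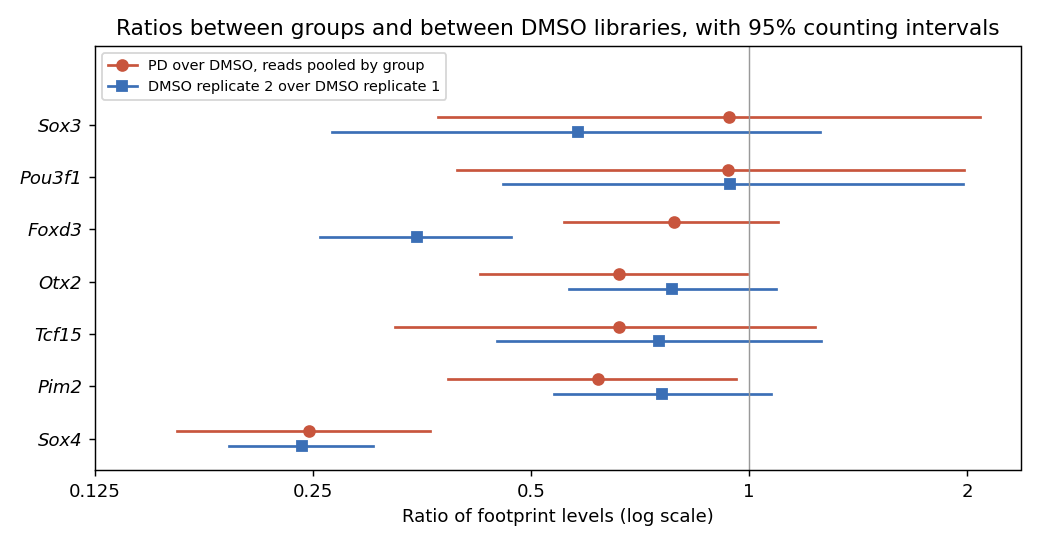
Ratios of footprint levels on a log axis for the 7 genes with recovered reads: PD over DMSO with reads pooled by group (red circles) and DMSO replicate 2 over DMSO replicate 1 (blue squares), with 95% counting intervals. For Sox4 the ratio between the DMSO libraries, 0.241, is as low as that between groups, 0.247, and for Foxd3 it is lower, at 0.348 against 0.787.

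Ordered by their DMSO means, the genes ran from Foxd3 (9.12 FPKM), Sox4 (8.99), Tcf15 (8.29), Otx2 (7.43) and Pim2 (7.02) to Ncam1 (3.64), Sox3 (1.56), Pou3f1 (1.12) and Fgf5 (0.0469). The first 5 did not differ from their neighbours beyond the spread of the DMSO libraries. In PD, Ncam1 came first at 10.2 FPKM, and Sox4 moved behind Pim2 at 2.15 FPKM. PD replicate 2, the shallowest library, was the lowest of the 4 for 6 of the 8 genes above 0 in at least 3 libraries, a place it held for 32% of tested protein-coding genes and for 33.1% of those with a mean under 8 FPKM. DMSO replicate 1 was the highest for 7 of the 9 genes, against 25.9% of tested protein-coding genes. Pou3f1, which was not tested, counts among the 6 but not among the 7, as its highest library was PD replicate 1. Fgf5, also not tested, counts among the 7 though it was above 0 in DMSO replicate 1 alone. Otx2, Tcf15 and Pim2 shared the full order from DMSO replicate 1 through DMSO replicate 2 and PD replicate 1 to PD replicate 2, as did 6.24% of tested protein-coding genes. The 9 genes were named with earlier results of these data known, so these shares are descriptions.

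Between groups, 0 of the 7 tested genes passed in limma at an adjusted p of 0.05, where 0.257% of the 9741 genes tested passed (0.0308% higher and 0.226% lower in PD), none of them protein-coding. At an unadjusted p under 0.05 Ncam1 was the only one of the 7, against 5.76% of all tested and 5.16% of tested protein-coding genes. The voom fit on recovered reads held 6 of the 9 genes, without Ncam1, Pou3f1 and Fgf5, and passed 0 of them at an adjusted p of 0.05. Both PD libraries lay below both DMSO libraries for 4 of the 7 genes (Sox4, Pim2, Tcf15 and Otx2), against 18.3% of all tested and 18.9% of tested protein-coding genes. They lay above for 1 (Ncam1), against 17.5% and 17.1%. In either direction that is 5 of 7 genes, against 35.8% and 36%. With 2 libraries a group, an exact two-sided permutation test of a single gene cannot go below p = 0.333. The intervals of the log2 differences are wide: for Sox4 it ran from -3.22 to 0.39, for Pim2 from -2.27 to 0.40, for Tcf15 from -1.89 to 0.34 and for Otx2 from -1.76 to 0.30. They therefore include both no difference and falls of more than 1 on the log2 scale.

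**Figure D3:**
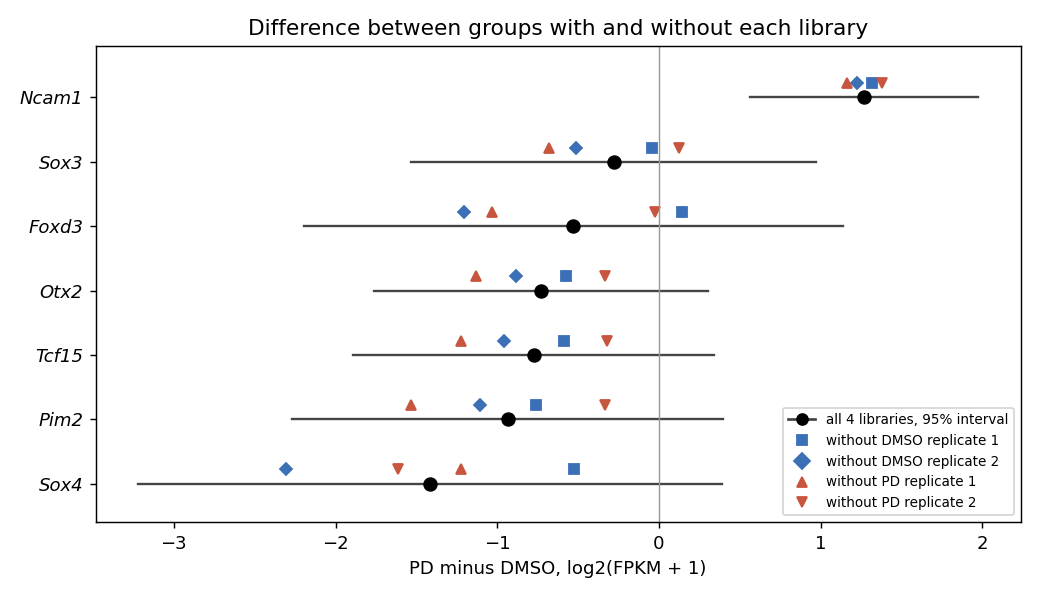
Log2 differences, PD minus DMSO on the log2(FPKM + 1) scale, for the 7 tested genes: all 4 libraries with the 95% limma interval (black), and with 1 library left out (coloured symbols above each line). Ncam1 stays between 1.16 and 1.38, Sox4 moves to -0.53 without DMSO replicate 1, and Foxd3 and Sox3 each cross 0 in 1 case.

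Other genes of the formative and primed states were read from a list of 30, of which 20 had a mean of at least 1 FPKM. In 4 of these PD lay below DMSO without overlap (18.3% of all tested genes did), in 0 above (17.5%), 16 overlapped, and the median log2 difference was -0.21, against -0.02 over all tested genes. None passed (limma; 0 had an unadjusted p under 0.05). Grhl2, an epithelial factor that opens enhancers in formative cells, was at 4.55 and 3.86 FPKM in DMSO and at 2.55 and 0.226 in PD. Its lowest value was in PD replicate 2, the shallowest library, and the lowest level of Grhl2 detectable there was not computed. Enpp3, a surface phosphodiesterase, was at 39.8 and 37.7 FPKM in DMSO and at 28.7 and 19.7 in PD. Rbpj, the DNA-binding partner of Notch, was at 1.72 and 1.79 FPKM in DMSO and at 0.527 and 1.01 in PD. The de novo methyltransferase Dnmt3b, one of the better expressed markers of the list, had 28.2 and 31.6 FPKM in DMSO and 19.6 and 22.5 in PD, a log2 difference of -0.49 (SE 0.25, limma adjusted p = 0.837). The median of this list was -0.03 without PD replicate 2, -0.39 without PD replicate 1 and -0.41 without DMSO replicate 2.

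**Figure D4:**
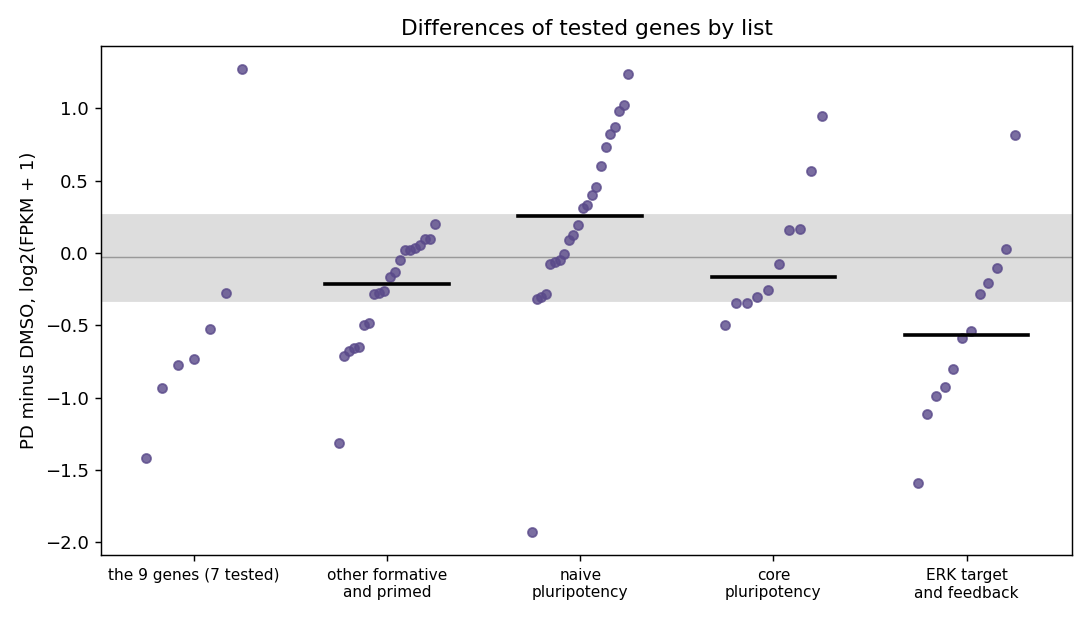
Log2 differences of tested genes, PD minus DMSO on the log2(FPKM + 1) scale, 1 point per gene in rank order, for the 7 tested genes described here and 4 other lists, with the median of each of those lists as a black bar. The grey band holds the middle 50% of tested protein-coding genes, from -0.34 to 0.26. The medians run from -0.56 for ERK target genes to 0.25 for naive pluripotency genes.

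Markers of the surrounding cell states give the setting, and the shares to set their counts against are the 17.5% of all tested genes with both PD libraries above DMSO and the 18.3% with both below. Core pluripotency genes, which the labelled cell type should express, were all 10 tested, and their summed level was 1217 to 1577 FPKM in DMSO and 1417 to 1604 in PD. Of these, 2 lay above and 2 below without overlap (0 passed in limma, 0 at an unadjusted p under 0.05). Dppa2 had means of 0.511 FPKM in DMSO and 2.08 in PD, and L1td1, an RNA-binding protein, had 216 and 319. Dppa4, the partner of Dppa2, had 25.7 and 19.8, and Sox2 had 45.1 and 35.3.

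Naive pluripotency genes lay above DMSO in both PD libraries for 10 of 22 members and below for 1, with a median log2 difference of 0.25 (0 passed in limma, and 5 had an unadjusted p under 0.05). In the voom fit, over the members with recovered reads, the median was 0.03. The member with the largest difference was the one that lay below, Dppa3, a maternal factor that protects DNA methylation. It was at 3.5 and 2.23 FPKM in DMSO, and both PD libraries list it at 0. The PD libraries had 0.464 and 0.201 times the depth of DMSO replicate 1. The lowest level of Dppa3 detectable there was not computed, so whether these values of 0 mark a loss was not tested. Tbx3, a T-box factor, had 5.79 and 3.88 FPKM in DMSO against 15.4 and 10.2 in PD, and Mras, a small GTPase, had 2.31 and 2.43 against 4.5 and 7.56. Nanog, a homeodomain factor of the naive state, had 70 and 57.1 FPKM in DMSO and 136 and 116 in PD.

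ERK target and feedback genes, which report the activity of the kinase below Mek, had 6 of 12 tested members lower in both PD libraries and 0 higher, with a median of -0.56 (0 passed in limma, 2 at an unadjusted p under 0.05). Without PD replicate 2 the median was -0.32. Ier3, an immediate early gene, was at 13.9 and 12 FPKM in DMSO and at 5.24 and 2.41 in PD. Spry2, a feedback inhibitor of the pathway, was at 20.4 and 16.3 FPKM in DMSO and at 9.88 and 6.26 in PD, and its relative Spry4 was at 11.3 and 6.29 against 3.12 and 5.02. Egr1, an immediate early transcription factor, was at 2.18 and 1.65 FPKM in DMSO and at 1.14 and 0 in PD. Its value of 0 was in PD replicate 2, the shallowest library, and the lowest level detectable there was not computed.

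Of the markers of other lineages, 2 of 10 endoderm genes were tested, 1 with both PD libraries above and 1 with both below DMSO. Lamb1, a laminin chain, was at 58.2 and 66.3 FPKM in DMSO and at 23.3 and 30 in PD, which makes up most of the list's sum of 60.9 to 68 FPKM in DMSO and 28.8 to 34.8 in PD. Col4a1, a collagen of basement membranes, was at 0.842 and 0.999 FPKM in DMSO and at 4.21 and 3.51 in PD, and the endoderm factor Gata6 was at 0 throughout. Trophectoderm markers summed to 9.37 and 14.7 FPKM in DMSO and to 5.42 and 9.04 in PD, with 1 of 3 tested members lower in both PD libraries and 0 higher. That member, Krt19, a keratin, was at 5.12 and 5.56 FPKM in DMSO and at 2.6 and 0.909 in PD, and Cdx2 was at 0 throughout. Mesoderm markers summed to 0.378 to 0.987 FPKM in every library, with 4 of 10 listed at 0 throughout.

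Several of the 9 genes are also used in neural cells, among them Ncam1, Sox3 and Sox4, so neural markers were read beside them. Of 15 neural markers 5 were tested, with 2 higher (17.5% of all tested genes were) and 0 lower (18.3%) in both PD libraries, and Dcx, a microtubule protein of migrating young neurons, was listed at 0 in all 4 libraries. The list summed to 157 to 201 FPKM in DMSO and 329 to 333 in PD. Stmn2, a microtubule regulator, accounted for 132 and 121 FPKM of this in DMSO and for 264 and 283 in PD. Nes, an intermediate filament of progenitors, was at 1.24 and 0.875 FPKM in DMSO and at 1.49 and 1.63 in PD. The other 3 tested markers overlapped between the groups. Log2 differences of the 5 ran from -0.88 to 1.1, so the list did not move in 1 direction. Their median was 0.29, and it turned to -0.15 without DMSO replicate 2.

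Feeder and fibroblast markers summed to 137 to 200 FPKM in DMSO and 274 to 291 in PD, and of 5 tested members PD lay above DMSO without overlap in 2 and below in 1. Vim, an intermediate filament protein, accounted for 105 and 29.7 FPKM of this in DMSO and for 207 and 185 in PD. The higher sum in PD thus came from Vim, not from the list as a whole. The surface protein Thy1 was at 1.13 and 1.49 FPKM in DMSO against 1.82 and 2.1 in PD. Fn1, the matrix protein fibronectin, was the lower one, with 86.3 and 103 FPKM in DMSO and 79.3 and 80.1 in PD. Lum, Postn and S100a4 were at 0 in all libraries. The part of neural or fibroblast-like cells in the level of Ncam1 was not tested.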

How the data were processed

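Ribosome footprints were measured in 4 libraries, 2 per group. The authors deposited FPKM with a lower and an upper bound per gene and library, per the file headers. Per the submitters' processing notes FastQC, Trimmomatic, Bowtie2, STAR, Cufflinks and the build mm10 were used. Versions, the handling of reads that match several places and any restriction to coding sequence are not given in the sources used here. A single gene (1) whose status was a failure was left out, and 1 was added to each deposited start.

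Whole reads were recovered with a tolerance of 0.02 reads in 66.5% of 10161 genes present in every library, and in 0.561% when wrong steps were used. The main test was limma (version 3.58.1, R 4.3.3, group only, variance trend) on log2(FPKM + 1), for the 9741 genes whose mean reached 1 FPKM, with Benjamini-Hochberg adjustment and 0.05 as the threshold. The fit and the read recovery were also run on simulated data, and the outcomes are not given here. Gene types came from RefSeq GRCm38.p6, where 24976 of 25170 symbols matched. All 9 genes are named. Up to 4 genes of every other list are named, those with the largest differences among tested members without overlap, and relatives of the 9 genes are given by level. Other genes are named only as listed at 0. The genes and lists were chosen with earlier results of these data known.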

Additional observations from a re-analysis of the deposited data

How the results depend on the processing

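Of the 9 genes, 0 passed under any setting that tested them. Of 103 refitted log2 differences of the 7 tested genes, 101 kept their direction and 2 turned: Foxd3 (0.15) without DMSO replicate 1 and Sox3 (0.12) without PD replicate 2. Refits that changed only the filter, the variance trend or the gene set, or added the replicate number, could not alter these values. Their part of the 101 was fixed in advance. Leaving out 1 library at a time, Foxd3 ran from -1.20 to 0.15 and Sox3 from -0.68 to 0.12. The number with both PD libraries below both DMSO libraries ran from 4 to 6 when a library was left out, and that above stayed at 1. With voom on recovered reads the latter was 0, since Ncam1 has no recovered reads. Over all genes 3 were higher and 22 lower in PD (limma), with 0 to 27 higher and 0 to 20 lower when a library was left out. With voom, and with protein-coding genes alone (chosen after seeing the data), 0 were higher and 0 lower. Unadjusted p-values under 0.05 numbered 373 in the former and 606 in the latter. The replicate block, which fits the replicate number beside the group, gave 2 higher and 17 lower, and 0 of the 9 genes. Same-numbered libraries deviated together only weakly (r = 0.20 across 8863 protein-coding genes, which are not replicates), and the labels do not pair them. A tolerance of 0.05 reads recovered 7476 genes in place of 6753. Depth limits Pou3f1, Sox3, Tcf15 and Pim2, with 0 to 3 reads in PD replicate 2, and Fgf5, listed at 0 in 3 libraries.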

Other observations

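Relatives of the 9 genes were read at the same scale per length. Of the POU factors, Pou5f1 was at 326 and 245 FPKM in DMSO and at 247 and 228 in PD, whereas Pou3f2 and Pou3f3 were at 0.3296 FPKM or less in every library. Among the Sox genes nearest to Sox3, Sox2 was at 45.5 and 44.7 FPKM in DMSO and at 36 and 34.6 in PD, and Sox1, a neural factor, was at 0.1215 FPKM or less. Sox11 and Sox12, the closest relatives of Sox4, had means over the 4 libraries of 0.798 and 0.998 FPKM, under the minimum for testing. The kinases Pim1 and Pim3 had higher levels than Pim2, with DMSO means of 37.3 and 38.6 FPKM. Pim3 lay below DMSO in both PD libraries, at 24.4 and 29 FPKM against 39.3 and 38 in DMSO (limma adjusted p = 0.837), and Pim1 overlapped between the groups.

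Fgf4 and Fgf15 had higher levels than Fgf5. Fgf4, the ligand that embryonic stem cells make for themselves, was at 16.6 and 11 FPKM in DMSO and at 17.1 and 9.48 in PD. Fgf15 was at 6.86 and 4.65 FPKM in DMSO and at 6.09 and 1.34 in PD, with PD replicate 2 again lowest. Fgf8, a ligand of the primitive streak, was listed at 0 in 3 of the libraries. The paralogues Otx1, Crx, Foxd1, Foxd2 and Ncam2 were listed at 0 in all 4.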
